A study of Rattus norvegicus with 20 samples.

Results

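The genes described here build the mechanical scaffold and the outer barrier of stratified epithelium. They are keratins and a keratin-associated protein, desmosomal cadherins and the plakins that anchor them, proteins of the cornified envelope and the late epidermal programme, annexins, and 3 further genes. Members were taken by the start of their symbol (Krt, Dsc, Dsg, Dsp, Pkp, Evpl, Ppl, Ivl, Lor, Flg, Sprr, S100, Tgm, Klk, Spink, Serpinb, Lce, Dmkn, Sbsn, Cnfn, Calml, Lypd, Ly6 or Anxa), with Krt4, Krt8 and Krt18 left out. The only source of symbols was a pair of gene lists published with the study, which paired 2311 identifiers of the count files with a symbol. The rule gave 26 genes of the 32494 in the files, and all 26 passed the filter on low counts that left 13302 genes for testing. The lists hold genes that the study found to differ between whisker cells and other tissues in these same samples, and the longer one was read only as far as the symbol Fam208b. Of the 26 genes, 11 came from the list common to the 4 tissues and 15 from the other list alone, so members late in the alphabet could enter only through the common list. Dscc1, a factor of DNA replication and sister chromatid cohesion, and Krtap3-2, a protein of the hair shaft matrix, were taken up by their letters alone and are neither desmosomal nor epidermal keratin genes.

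Read counts came from 20 RNA samples of cultured rat epithelial cells, 2 in each of 10 groups. The cells came from bladder (dome, donor at postnatal day PN201), trachea and vagina (PN200), thymus (PN137) and whisker follicle (PN57). All donors were Sprague-Dawley rats of the green rat CZ-004 line, which carries act-EGFP and expresses the fluorescent protein throughout the body. Each tissue was sampled as cultured cells before transplantation and as cells grown again in culture after recovery from skin of a newborn mouse grafted onto an athymic mouse. All groups were grown on irradiated mouse 3T3-J2 feeder cells and sorted for EGFP, so every comparison is between cultures. Bladder, trachea and vagina cells were bulk cultures. Whisker cells were 1 clone before and 1 subclone after transplantation, and so stand for 1 clonal lineage. Thymic cells were taken from frozen stocks, with the earlier samples named bulk in one label and clone in another and the recovered samples named bulk. Nothing in the labels says that the 2 samples of a group came from separate animals or cultures, so p-values measure only the spread between these samples, which may be technical, and an exact permutation test of 2 against 2 samples could not go below 0.33.

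Between 20723083 and 29824855 reads per sample fell on genes, so that 3 reads corresponded to 0.099 to 0.143 CPM (counts scaled to a common library total), and intervals and floors from reads cover counting error only. In every group the 2 libraries were further apart than sampling of reads allows (mean chi-square per gene 2.48 to 42.9), most in thymus and bladder before transplantation, and no samples were merged. The members had median absolute log2 differences between the samples of a group of 0.45 in bladder, 0.34 in thymus and 0.33 in vagina before transplantation, and of 0.05 to 0.16 in the other groups. The epithelial adhesion genes Cdh1 (806 to 2420 CPM) and Epcam (140 to 519 CPM) were expressed in all 20 samples, and the other 6 epithelial markers on the list were not analysed here because no symbol was paired with them. Fibroblast markers (Col1a1, Col3a1, Col6a3 and Dcn, 4 of a list of 9) summed to 203 to 265 CPM in bladder and 281 to 288 CPM in trachea before transplantation, against 21.9 to 49.1 CPM in every other sample, and none of them was at 0 anywhere. Leukocyte markers (Cd68 and Cd74, 2 of 4) summed to 11.8 to 68.4 CPM. No endothelial or melanocyte marker had a paired symbol.

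Stratified epithelia are renewed from basal cells that stop dividing, move upward and turn into flattened barrier cells. On the way they replace one keratin pair by another, exchange the desmosomal cadherins that tie neighbouring cells together, and finally crosslink a cornified envelope under the membrane. In skin Dsc3 and Dsg3 are typical of the lower layers and Dsg1, Dsc1 and Krt10 of the upper ones, whereas Krt19 is typical of simple and mucosal epithelia. The genes of the 6 desmosomal cadherins lie next to each other on chromosome 18 in the order Dsc3, Dsc2, Dsc1, Dsg1, Dsg4, Dsg3, with 0 other protein-coding genes between them in the RefSeq annotation. Calml5 and Calml3 are direct neighbours on chromosome 17, and Sbsn and Dmkn are separated by 1 protein-coding gene on chromosome 1.

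Promoter sequences were found in RefSeq (build GRCr8) for 21 of the 26 genes, in all 22 promoters because Sbsn has 2; Anxa6, Dscc1, Evpl, Krt19 and Ly6g6c had no entry. The 250 bases before the annotated start are shown for 4 of the genes that carry the largest rise in a tissue or rose in at least 3 tissues: Krt10 (chr10:84839161-84839410, minus strand), Dmkn (chr1:95141370-95141619, plus strand), Calml5 (chr17:71305246-71305495, minus strand) and Cnfn (chr1:90081557-90081806, minus strand). They read 5′ to 3′ along the gene, and capitals mark a match to a TATA box (TATAAA), an AP-1 motif (TGANTCA) or an AP-2 motif (GCCNNNGGC), searched on both strands.
Krt10: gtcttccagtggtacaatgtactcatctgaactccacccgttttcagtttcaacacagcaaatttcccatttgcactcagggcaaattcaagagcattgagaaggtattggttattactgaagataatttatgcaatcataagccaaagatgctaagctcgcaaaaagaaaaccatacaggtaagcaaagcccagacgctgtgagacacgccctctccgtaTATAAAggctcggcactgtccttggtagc
Dmkn: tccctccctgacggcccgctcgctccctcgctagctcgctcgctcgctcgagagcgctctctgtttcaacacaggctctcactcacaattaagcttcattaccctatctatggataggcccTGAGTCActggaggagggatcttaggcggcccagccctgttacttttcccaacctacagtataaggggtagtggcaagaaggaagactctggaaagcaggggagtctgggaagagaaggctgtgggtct
Calml5: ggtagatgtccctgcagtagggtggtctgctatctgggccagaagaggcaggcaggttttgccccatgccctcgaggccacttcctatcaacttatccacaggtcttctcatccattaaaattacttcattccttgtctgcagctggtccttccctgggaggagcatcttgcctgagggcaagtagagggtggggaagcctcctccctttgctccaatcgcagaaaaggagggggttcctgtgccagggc
Cnfn: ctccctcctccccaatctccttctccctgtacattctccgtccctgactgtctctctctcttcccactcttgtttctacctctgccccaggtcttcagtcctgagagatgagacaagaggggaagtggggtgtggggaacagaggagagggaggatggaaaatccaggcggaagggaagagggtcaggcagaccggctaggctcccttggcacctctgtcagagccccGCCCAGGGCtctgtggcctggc
The TATA box of Krt10 began at position -29 from the start, the AP-1 match of Dmkn at -129 and the AP-2 match of Cnfn at -22, while the Calml5 window held none of the 3 motifs. Among the 22 promoters, TATAAA occurred in 3 (Krt10, Anxa1 and Krtap3-2), against 12.9% of 33469 promoters of all genes. TGANTCA occurred in 3 (Dmkn, Krtap3-2 and the second promoter of Sbsn), against 6.34% of all promoters, and GCCNNNGGC in 2 (Cnfn and Dsp), against 12.6%. No other member promoter held a match, and a match is a run of letters, not a measured binding site. Dsc1, Dsc3, Dsg1, Sbsn and Calml3 carry such rises too and are not shown. Of these only Sbsn held a match, so the 4 genes shown do not stand for the rising genes as a set.

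**Figure D1:**
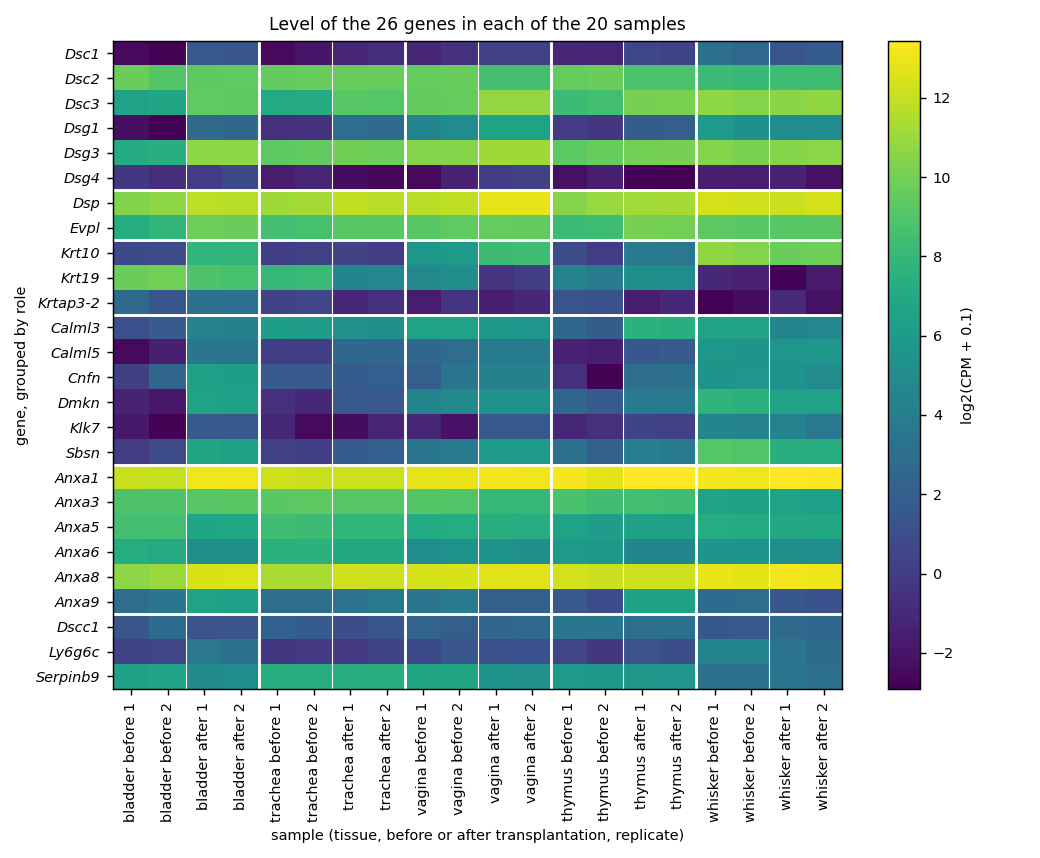
Level of each of the 26 genes (rows, grouped by role) in each of the 20 samples (columns), as log2(CPM + 0.1), with white lines between roles and tissues. Krt10, Dmkn, Sbsn and Calml5 were dark in bladder before transplantation and lighter after it, and Krt19 ran from 987 CPM in bladder to 0.046 CPM in whisker; colours compare samples within a row, since gene length was not taken into account.

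The first comparison asked how the recovered cells of each tissue differed from the same cells before transplantation. A gene was called when its adjusted p was below 0.05 and its change at least 2-fold. In bladder 18 of the 26 genes were higher and 4 lower after transplantation, where 10.1% of all genes tested were higher and 11.0% lower and 43.1% of the symbol-paired genes were called in either direction. In thymus 12 were higher and 2 lower (all genes 8.49% higher and 6.89% lower, symbol-paired genes 33.9% in either direction), and in vagina 10 were higher and 5 lower (all genes 4.25% and 7.53%, symbol-paired genes 26.8%), with 6 higher and 5 lower when the first earlier vaginal sample was left out. In trachea 6 were higher and 1 lower (all genes 4.39% and 8.04%, symbol-paired genes 27.6%), so the 7 genes called of 26 were a share close to that of the symbol-paired genes. Whisker cells went the other way, with 1 gene higher and 6 lower (all genes 2.15% and 3.83%, symbol-paired genes 15.4%). On the log2 scale the bladder median over the 26 genes was 2.54, the thymic one 1.02, the vaginal one 0.35, the tracheal one 0.09 and the whisker one -0.33, beside medians of all genes between -0.01 and 0.02. Because the genes entered through lists made from these samples, these counts are not independent of how the genes were chosen. In RNA from pools of sorted cells, fewer cells that express a gene and less RNA per cell cannot be told apart.

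Markers of other cells moved with the round in some tissues. The fibroblast marker sum went from 203 to 265 CPM before to 28.1 to 31.2 CPM after transplantation in bladder and from 281 to 288 CPM to 39.7 to 47.0 CPM in trachea. In vagina (24.0 to 33.4 CPM) and whisker (25.3 to 49.1 CPM) its ranges overlapped between rounds, and in thymus it went from 21.9 to 22.5 CPM to 41.8 to 45.6 CPM. Cd68, a lysosomal protein abundant in macrophages, went from 13.4 to 14.7 CPM to 52.9 to 55.1 CPM in bladder and from 11.1 to 12.2 CPM to 55.2 to 61.9 CPM in trachea, and fell from 60.2 to 62.6 CPM to 14.7 to 16.6 CPM in vagina. Cd74, the other leukocyte marker and the invariant chain of antigen presentation, moved the opposite way in each of these tissues. It fell from 50.0 and 24.9 CPM to 9.90 and 9.25 CPM in bladder (log2 fold change -1.89) and from 14.6 and 12.6 CPM to 6.43 and 4.52 CPM in trachea (-1.36), and rose from 1.41 and 0.975 CPM to 4.44 and 3.76 CPM in vagina (1.75). The part of these shifts in the changes of the 26 genes was not tested.

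Of all genes tested, 10.1% rose and 11.0% fell in bladder, and 8.49% and 6.89% in thymus. The shares were 4.25% and 7.53% in vagina and 4.39% and 8.04% in trachea. Counts by role are not independent of how the genes were chosen and are a description only. By role, the rises were spread as follows. All 6 cornified envelope and late epidermal genes rose in bladder, 5 rose in thymus, 4 in vagina and 3 in trachea, and none was called lower in these 4 tissues, where Calml3 had values of -0.86 in trachea and -0.78 in vagina, within the 2-fold limit. Of the 6 desmosomal cadherins 4 rose in bladder and 4 in vagina, where 1 fell, and 3 rose in trachea and 3 in thymus. Both plakins rose in bladder, 1 in vagina, 1 in thymus and none in trachea. Annexins moved in either direction, with 3 of 6 higher and 2 lower in bladder, 2 lower in vagina, 1 higher and 1 lower in thymus, and 0 called in trachea.

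**Figure D2:**
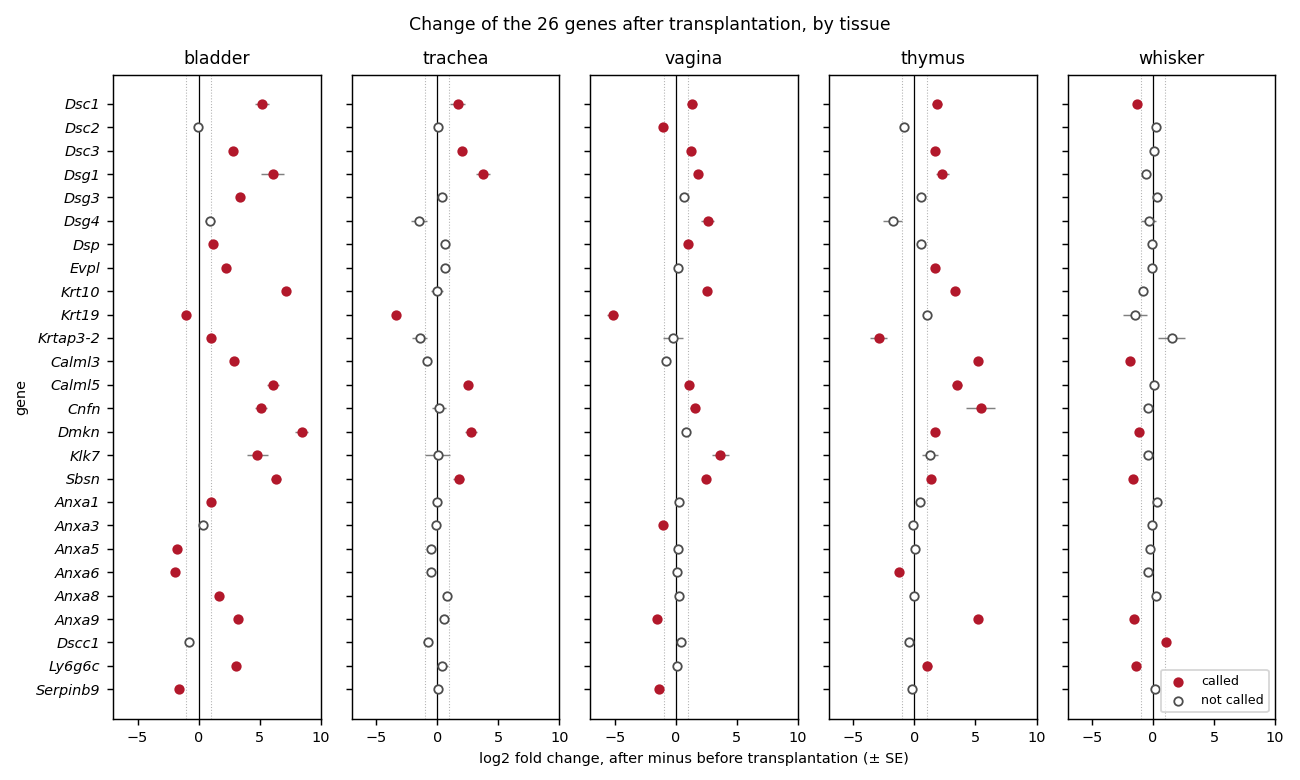
Log2 fold change of each of the 26 genes after against before transplantation (horizontal axis, bars ± SE) in each tissue, with filled points for called genes and open points for the rest. Of the 22 filled points in bladder 18 lie to the right of 0, up to 8.44 for Dmkn, while 6 of the 7 filled points in whisker lie to the left.

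The 5 genes that rose in all 4 non-hair tissues were Dsc1, Dsc3, Dsg1, Calml5 and Sbsn, and Cnfn, Dmkn and Krt10 rose in 3. Some of the calls of Dsc1, Calml5, Sbsn and Cnfn ended in alternative runs other than the 4-fold threshold, as given below for each gene. Among all genes tested 0.278% rose in 4 of 4 tissues and 1.53% in at least 3, and among the symbol-paired genes 0.909% and 4.02%. Calml5, Dmkn, Dsc1, Krt10 and Sbsn came from the list of genes that differed from whisker cells in all 4 tissues. The counts of rising members are thus not independent of how the genes were chosen, and neither share matches that choice. The 8 genes cover 3 of the 6 cadherins, 4 of the 6 cornified envelope and late epidermal genes and 1 keratin.

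**Figure D3:**
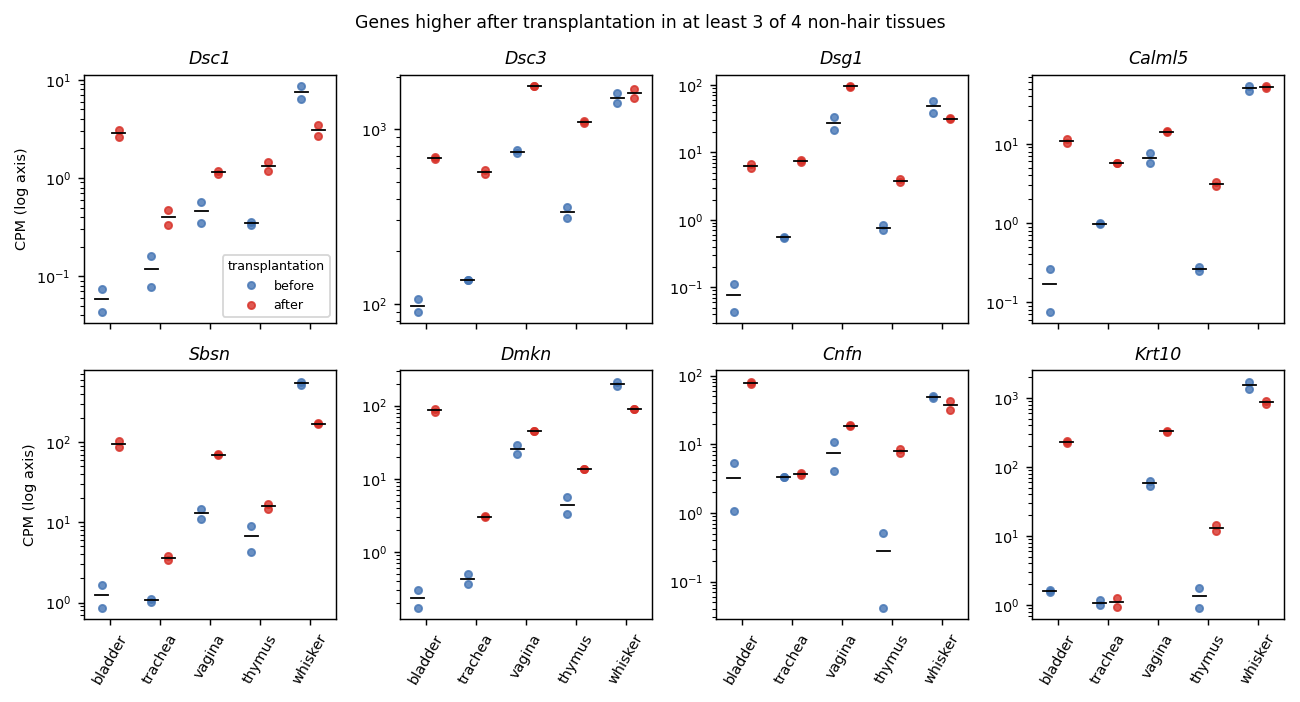
CPM (log axis) in each sample of the 8 genes that rose in at least 3 of the 4 non-hair tissues, by tissue, with blue points before and red points after transplantation and a bar at the mean of the 2 samples. Dsc3 and Dsg1 had both red points above both blue points in all 4 non-hair tissues, whereas the red and blue points of Krt10 in trachea overlapped.

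Dsg1 encodes the desmoglein that holds the upper epidermal layers together. In bladder cells it rose from 0.112 and 0.0431 CPM to 6.71 and 5.85 CPM (log2 fold change 6.07 ± 0.94 (SE), limma adjusted p = 4.1e-05), a change that rests on 4 reads before transplantation. Tracheal cells went from 0.538 and 0.563 CPM to 7.79 and 7.26 CPM (log2 fold change 3.72 ± 0.57, adjusted p = 7.7e-05). Both recovered samples lay far above both earlier samples in each of these tissues. In vaginal cells, where Dsg1 was highest of the 4 non-hair tissues before transplantation, it rose from 21.7 and 33.4 CPM to 97.1 and 93.7 CPM (log2 fold change 1.84 ± 0.16, adjusted p = 1.9e-07). Thymic cells went from 0.833 and 0.704 CPM to 3.65 and 3.99 CPM (log2 fold change 2.29 ± 0.54, adjusted p = 0.0024). The groups did not overlap in any of the 4 tissues, and whisker cells, at 58.3 and 38.8 CPM before and 31.1 and 32.2 CPM after, did not reach a 2-fold change (log2 fold change -0.59 ± 0.17, adjusted p = 0.015).

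Dsc1, the desmocollin of the uppermost living layers, was present at low levels. It reached 1 CPM in 10 of the 20 samples. In bladder it was at 0.0747 and 0.0431 CPM before and 3.09 and 2.63 CPM after transplantation. These are 3 and 126 reads in all, a ratio of 47.5 with a 95% counting interval of 15.9 to 233 (adjusted p = 1.1e-06). Values in thymus went from 0.357 and 0.331 CPM to 1.44 and 1.19 CPM (log2 fold change 1.85 ± 0.42, adjusted p = 0.0018), with no overlap. In vagina they went from 0.344 and 0.576 CPM to 1.17 and 1.11 CPM (log2 fold change 1.33 ± 0.41, adjusted p = 0.015). The vaginal call ended without the first earlier sample (log2 fold change 0.94) or without the first recovered one (1.29). In trachea the levels were 0.0769 and 0.161 CPM before and 0.329 and 0.474 CPM after (log2 fold change 1.68 ± 0.59, adjusted p = 0.03). That call ended in DESeq2 (1.76) and without either earlier sample (1.22 and 2.13) or the second recovered sample (1.42). In whisker cells Dsc1 fell, from 8.69 and 6.33 CPM to 2.67 and 3.48 CPM (log2 fold change -1.28 ± 0.20, adjusted p = 0.00017).

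Dsc3 is the desmocollin of basal and lower layers. It went from 89.7 and 106 CPM to 696 and 674 CPM in bladder (log2 fold change 2.81 ± 0.09, adjusted p = 7e-13). In trachea it went from 136 and 136 CPM to 582 and 554 CPM (log2 fold change 2.06 ± 0.09, adjusted p = 8.4e-11), the largest rise among members that reached 10 CPM there. The 2 samples of each of these groups lay within a narrow range compared with the change. In thymus Dsc3 rose from 311 and 359 CPM to 1090 and 1120 CPM (log2 fold change 1.72 ± 0.09, adjusted p = 3e-10). In vagina it rose from 731 and 757 CPM to 1770 and 1760 CPM (log2 fold change 1.25 ± 0.09, adjusted p = 1.9e-08). Whisker cells held 1600 and 1410 CPM before and 1510 and 1690 CPM after, which overlap (log2 fold change 0.09 ± 0.09, adjusted p = 0.52). The calls of Dsc3 and Dsg1 in the 4 non-hair tissues held under every alternative run but the 4-fold threshold.

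The other 3 cadherins showed no common direction. Dsg3, the desmoglein of the lower layers, was called in bladder alone of the 4 non-hair tissues, where it rose from 143 and 160 CPM to 1650 and 1590 CPM (log2 fold change 3.42 ± 0.10, adjusted p = 2.6e-13). Its changes in the other 3 non-hair tissues were between 0.43 and 0.64 on the log2 scale, below the 2-fold limit. Dsc2, the desmocollin found in most epithelia, ranged from 267 to 863 CPM. It fell in vagina, from 774 and 809 CPM to 392 and 391 CPM (log2 fold change -1.02 ± 0.14, adjusted p = 2.6e-05), a call that ended at -0.98 without the second earlier sample. Dsg4, the desmoglein of the hair shaft and upper epidermis, was under 1 CPM in 17 of 20 samples. It rose in vagina from 0.0765 and 0.310 CPM to 1.01 and 1.08 CPM (log2 fold change 2.61 ± 0.53, adjusted p = 0.00096), with values of 1.66 and 3.48 when the first or the second earlier sample was left out. In bladder it was 0.747 and 0.474 CPM before and 0.905 and 1.55 CPM after (log2 fold change 0.97 ± 0.41, adjusted p = 0.051). In trachea it was 0.231 and 0.322 CPM before and 0.0939 and 0.0730 CPM after (log2 fold change -1.51 ± 0.67, adjusted p = 0.084), neither passing the test. Thymic cells had 9 reads of Dsg4 before and 2 after, a ratio of 0.204 with a 95% counting interval of 0.0214 to 0.984.

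The plakins link desmosomes to keratin filaments. Dsp, the desmosomal anchor itself, was at 1320 CPM or more in every sample. It rose in bladder from 1320 and 1640 CPM to 3600 and 3220 CPM (log2 fold change 1.21 ± 0.13, adjusted p = 1e-06). In vagina it rose from 3420 and 3760 CPM to 7230 and 7300 CPM (log2 fold change 1.02 ± 0.14, adjusted p = 1.9e-05), a call that ended at 0.93 without the first earlier sample. Evpl, envoplakin, is also built into the cornified envelope. It rose in bladder from 147 and 219 CPM to 899 and 832 CPM (log2 fold change 2.27 ± 0.13, adjusted p = 3.6e-10) and in thymus from 319 and 335 CPM to 1070 and 1040 CPM (log2 fold change 1.69 ± 0.13, adjusted p = 2.2e-08). In trachea it went from 371 and 411 CPM to 595 and 602 CPM (log2 fold change 0.62 ± 0.13, adjusted p = 0.0011), which stayed under 2-fold. In vagina it was 594 and 691 CPM before and 746 and 728 CPM after (log2 fold change 0.20 ± 0.13, adjusted p = 0.23). The recovered samples of Evpl lay above the earlier ones in all 4 non-hair tissues, but only bladder and thymus met the call.

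Krt10, the keratin of cells that have left the basal layer, changed by very different amounts in the 5 tissues. In bladder it rose from 1.57 and 1.64 CPM to 235 and 223 CPM (log2 fold change 7.14 ± 0.30, adjusted p = 1.3e-11). In vagina it rose from 52.6 and 62.8 CPM to 321 and 337 CPM (log2 fold change 2.52 ± 0.12, adjusted p = 9.6e-11), the largest rise there among members with at least 10 CPM. In thymus it went from 1.79 and 0.911 CPM to 14.4 and 12.0 CPM (log2 fold change 3.32 ± 0.34, adjusted p = 7.2e-07). Trachea stood apart, at 1.00 and 1.17 CPM before and 1.27 and 0.948 CPM after, with overlapping samples (log2 fold change 0.00 ± 0.48, adjusted p = 1). Whisker cells had the highest levels, 1720 and 1350 CPM before and 821 and 917 CPM after and so lower by less than 2-fold (log2 fold change -0.81 ± 0.11, adjusted p = 5.5e-05).

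Among all genes tested 2.65% fell in at least 3 of the 4 non-hair tissues. Krt19, a keratin typical of simple and mucosal epithelia, was the only member that fell in 3 of them. In vagina it fell from 27.2 and 35.5 CPM to 0.670 and 1.01 CPM (log2 fold change -5.18 ± 0.43, adjusted p = 1e-07). In trachea it fell from 248 and 273 CPM to 24.3 and 26.2 CPM (log2 fold change -3.36 ± 0.14, adjusted p = 8.4e-11). Both were the largest falls of any member with at least 10 CPM in the tissue concerned. In bladder it fell from 857 and 987 CPM to 469 and 413 CPM (log2 fold change -1.06 ± 0.13, adjusted p = 2.1e-06), and this call ended without the second earlier sample (-0.97) or the second recovered one (-0.98). Thymic cells ran against this, with 21.2 and 14.6 CPM before and 37.0 and 33.1 CPM after, just under 2-fold (log2 fold change 0.99 ± 0.16, adjusted p = 0.00012). Whisker cells had at most 0.374 CPM in any sample. After transplantation bladder cells thus kept 413 to 469 CPM of Krt19 while vaginal cells were at 0.67 to 1.01 CPM.

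Krtap3-2 reached 1 CPM in 8 of 20 samples. In bladder it was 6.68 and 2.63 CPM before and 9.57 and 8.18 CPM after (log2 fold change 1.03 ± 0.28, adjusted p = 0.0051). That call ended in edgeR (0.92), in DESeq2 (0.90), in a fit of the bladder groups alone (1.01), and without the second earlier (0.40) or the first recovered sample (0.91). In trachea it was 1.23 and 1.37 CPM before and 0.376 and 0.547 CPM after (log2 fold change -1.45 ± 0.65, adjusted p = 0.086), which did not pass the test. In thymus it fell from 2.42 and 2.20 CPM to 0.212 and 0.363 CPM (log2 fold change -2.94 ± 0.67, adjusted p = 0.0019). Whisker cells, the tissue of hair, had 3 reads of it before and 12 after transplantation, a ratio of 3.93 with a 95% counting interval of 1.06 to 21.7.

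Dmkn, dermokine, is secreted by the upper epidermal layers. Its rise in bladder was the largest of any member, from 0.299 and 0.172 CPM to 91.3 and 83.2 CPM (log2 fold change 8.44 ± 0.55, adjusted p = 2e-09). The size of that rise rests on 12 reads before transplantation. In trachea it rose from 0.500 and 0.362 CPM to 3.00 and 3.10 CPM (log2 fold change 2.79 ± 0.50, adjusted p = 0.00032), and in thymus from 5.60 and 3.27 CPM to 13.6 and 13.8 CPM (log2 fold change 1.67 ± 0.22, adjusted p = 1e-05). Vaginal cells went from 21.5 and 29.2 CPM to 45.4 and 44.9 CPM, which did not reach 2-fold (log2 fold change 0.86 ± 0.13, adjusted p = 6.9e-05). Whisker cells fell from 213 and 188 CPM to 91.2 and 89.2 CPM (log2 fold change -1.15 ± 0.11, adjusted p = 1.4e-06). After transplantation the bladder and whisker samples of Dmkn lay side by side, at 83.2 to 91.3 CPM.

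Sbsn, suprabasin, is made in differentiating keratinocytes and lies close to Dmkn in the genome. In bladder it rose from 0.859 and 1.64 CPM to 104 and 87.2 CPM (log2 fold change 6.33 ± 0.41, adjusted p = 1.9e-09). In vagina it rose from 11.0 and 14.8 CPM to 70.7 and 68.6 CPM (log2 fold change 2.45 ± 0.18, adjusted p = 2.3e-08). Tracheal values were far lower, 1.12 and 1.01 CPM before and 3.43 and 3.76 CPM after (log2 fold change 1.75 ± 0.48, adjusted p = 0.008), and the call ended without the first (1.82) or the second (1.68) earlier sample. Thymic cells went from 9.05 and 4.31 CPM to 16.7 and 14.8 CPM (log2 fold change 1.32 ± 0.24, adjusted p = 0.00027), a call that ended at 0.80 without the second earlier sample. In whisker cells it fell from 567 and 515 CPM to 169 and 171 CPM (log2 fold change -1.67 ± 0.13, adjusted p = 2.1e-07).

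Cnfn, cornifelin, is a constituent of the cornified envelope. In bladder it rose from 1.05 and 5.39 CPM to 81.8 and 75.1 CPM (log2 fold change 5.10 ± 0.50, adjusted p = 2.5e-07). In thymus it rose from 0.516 and 0.0414 CPM to 7.39 and 8.45 CPM (log2 fold change 5.43 ± 1.21, adjusted p = 0.0016). The earlier samples were far apart in both tissues, and leaving out the first or the second of them gave 3.85 and 6.20 in bladder and 6.99 and 3.90 in thymus. In vagina Cnfn went from 4.05 and 10.9 CPM to 18.9 and 18.3 CPM (log2 fold change 1.53 ± 0.37, adjusted p = 0.0036), and the call ended in DESeq2 (1.31) and without the first earlier sample (0.76), while the value without the second was 2.20. Tracheal samples stayed at 3.31 and 3.38 CPM before and 3.52 and 3.83 CPM after (log2 fold change 0.14 ± 0.57, adjusted p = 0.87).

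Calml5 and Calml3, calmodulin-like proteins of differentiating epithelium, are neighbours in the genome. Calml5 rose in bladder from 0.0747 and 0.259 CPM to 11.5 and 10.3 CPM (log2 fold change 6.11 ± 0.48, adjusted p = 1.9e-08), with values of 5.28 and 6.86 without the first or the second earlier sample. In trachea it rose from 1.00 and 0.966 CPM to 5.68 and 5.80 CPM (log2 fold change 2.52 ± 0.29, adjusted p = 4.2e-06). No sample of either tissue overlapped. In thymus Calml5 rose from 0.278 and 0.249 CPM to 2.97 and 3.27 CPM (log2 fold change 3.48 ± 0.43, adjusted p = 6.4e-06). In vagina it rose from 5.66 and 7.66 CPM to 14.0 and 14.4 CPM (log2 fold change 1.12 ± 0.15, adjusted p = 1.6e-05), a call that ended at 0.87 without the first earlier sample. Whisker cells held 47.0 to 54.2 CPM throughout.

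Calml3 had the largest rise in thymus among members with at least 10 CPM, from 5.75 and 3.64 CPM to 183 and 167 CPM (log2 fold change 5.24 ± 0.18, adjusted p = 3.5e-12). In bladder it rose from 2.02 and 3.41 CPM to 21.2 and 18.1 CPM (log2 fold change 2.91 ± 0.23, adjusted p = 2.1e-08). The other 3 tissues had lower values after transplantation. Tracheal cells went from 71.8 and 69.9 CPM to 40.6 and 37.4 CPM (log2 fold change -0.86 ± 0.11, adjusted p = 1.2e-05) and vaginal cells from 89.1 and 92.2 CPM to 55.6 and 50.6 CPM (log2 fold change -0.78 ± 0.10, adjusted p = 2.3e-05), without overlap but by less than 2-fold. In whisker cells Calml3 showed the largest fall of any member with at least 10 CPM, from 94.6 and 89.8 CPM to 24.1 and 26.1 CPM (log2 fold change -1.88 ± 0.12, adjusted p = 1.3e-08).

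Klk7 encodes a protease that cleaves desmosomal links as surface cells are shed. It was under 1 CPM in 10 of 20 samples and highest in whisker cells, at 12.4 to 23.4 CPM. In bladder it rose from 0.187 and 0.0431 CPM to 3.24 and 3.23 CPM (log2 fold change 4.79 ± 0.86, adjusted p = 0.00017), with values of 5.65 and 3.98 without the first or the second earlier sample. In vagina it rose from 0.344 and 0.133 CPM to 3.10 and 2.99 CPM (log2 fold change 3.66 ± 0.72, adjusted p = 0.00076), or by 4.29 without the first earlier sample. Both recovered groups stood clear of the earlier ones. Thymic cells were at 0.397 and 0.538 CPM before and 1.23 and 1.09 CPM after (log2 fold change 1.28 ± 0.66, adjusted p = 0.12). Tracheal cells were at 0.385 and 0.0805 CPM before and 0.0939 and 0.328 CPM after, with overlap (log2 fold change 0.04 ± 1.00, adjusted p = 0.98).

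A further 46 symbols were looked for, of keratins, desmosome and envelope genes, proteases and their inhibitors, S100 genes and regulators. Of these 1 was paired, Casp14, the caspase of cornifying cells. Casp14 rose in bladder from 2.65 and 1.68 to 8.48 and 8.39 CPM (log2 fold change 1.97 ± 0.30 (SE), adjusted p = 3.1e-05). In trachea it rose from 5.73 and 5.71 to 24.2 and 17.5 CPM (1.83 ± 0.20, adjusted p = 2.1e-06). Its changes in vagina (0.29), thymus (-0.12) and whisker (-0.80) were not called. Casp14 therefore rose in trachea, as did the late epidermal genes Calml5, Dmkn and Sbsn. Krt10, Calml3, Cnfn and Klk7 were not called there.

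Annexins bind membranes when calcium rises, and Anxa1 is also a substrate of the crosslinked envelope. Anxa1 was at 4080 CPM or more in every sample and rose in bladder from 4510 and 4080 CPM to 8670 and 8870 CPM (log2 fold change 1.03 ± 0.10, adjusted p = 1.7e-07), a call that ended at 0.96 without the second earlier sample. Anxa8 rose in bladder from 1580 and 2060 CPM to 5570 and 5940 CPM (log2 fold change 1.67 ± 0.10, adjusted p = 8.2e-10) and ranged up to 9060 CPM in whisker. Anxa3 ranged from 80.2 to 653 CPM. It fell in vagina from 531 and 522 CPM to 248 and 248 CPM (log2 fold change -1.09 ± 0.09, adjusted p = 7.9e-08).

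Anxa6 and Anxa5 fell in bladder, where the fibroblast markers fell too. Anxa6 went from 146 and 138 CPM to 35.6 and 37.4 CPM in bladder (log2 fold change -1.96 ± 0.09, adjusted p = 6.4e-11), the largest fall there among members with at least 10 CPM. In thymus, where the fibroblast sum was higher after transplantation, it fell from 62.8 and 56.5 CPM to 24.5 and 24.0 CPM (log2 fold change -1.30 ± 0.10, adjusted p = 3.1e-08). Anxa5 went from 380 and 374 CPM to 108 and 114 CPM in bladder (log2 fold change -1.77 ± 0.09, adjusted p = 1.5e-10). In trachea, where the fibroblast sum fell, Anxa6 went from 183 and 183 CPM to 127 and 130 CPM (log2 fold change -0.51 ± 0.09, adjusted p = 0.00017) and was not called. Anxa5 went from 342 and 316 CPM to 232 and 228 CPM there (log2 fold change -0.51 ± 0.09, adjusted p = 0.00028) and was not called either. Its change in thymus was 0.02 ± 0.09, also not called. The part of the fibroblast shifts in these annexin changes was not tested.

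Anxa9, an annexin of stratified epithelium, went up in some tissues and down in others. In thymus it rose from 3.06 and 1.82 CPM to 88.4 and 85.6 CPM (log2 fold change 5.18 ± 0.26, adjusted p = 2.4e-10). In bladder it rose from 7.69 and 11.1 CPM to 89.5 and 80.7 CPM (log2 fold change 3.21 ± 0.16, adjusted p = 1e-10). In vagina it fell from 10.5 and 13.7 CPM to 3.94 and 4.28 CPM (log2 fold change -1.53 ± 0.23, adjusted p = 6e-05). Recovered bladder and thymic cells thus held 80.7 to 89.5 CPM of Anxa9 and recovered vaginal cells 3.94 to 4.28 CPM. Whisker cells fell from 6.78 and 7.87 CPM to 2.81 and 2.25 CPM (log2 fold change -1.53 ± 0.29, adjusted p = 0.0012), and tracheal cells were at 7.77 and 8.01 CPM before and 9.77 and 13.1 CPM after, which was not called (log2 fold change 0.54 ± 0.20, adjusted p = 0.037).

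**Figure D4:**
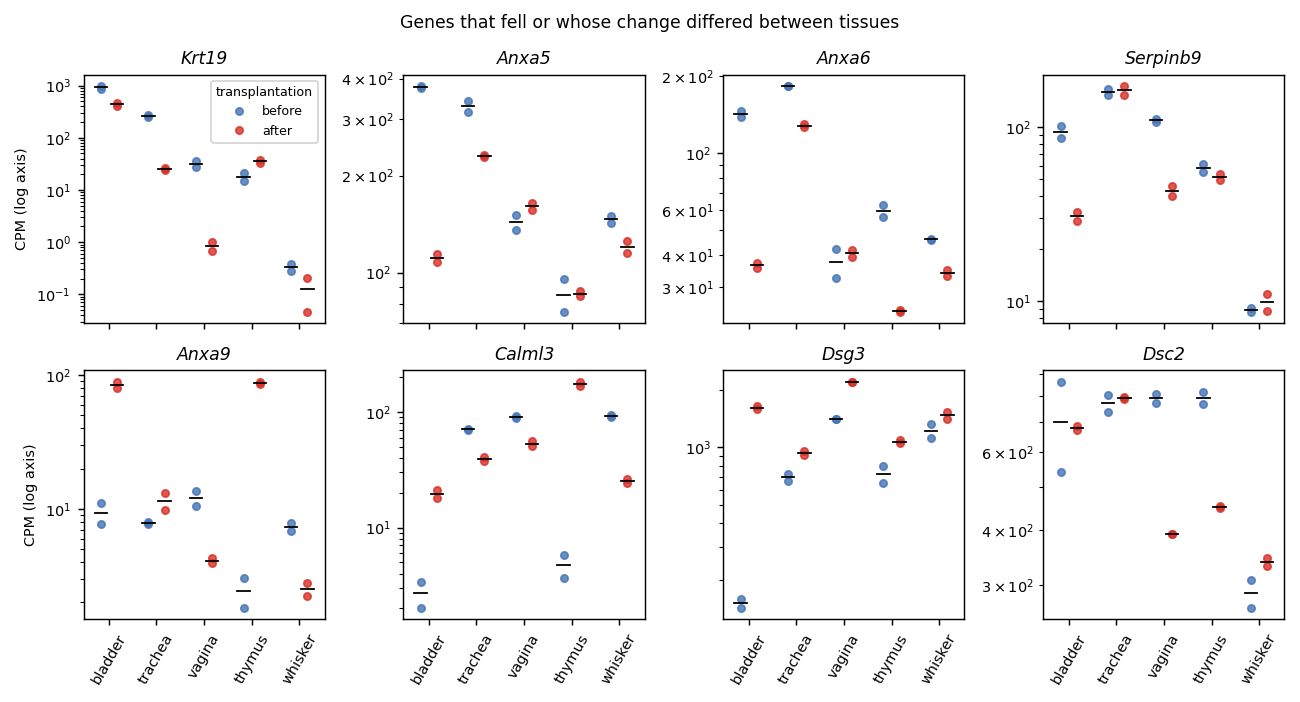
CPM (log axis) in each sample of 8 members that fell, moved in either direction or changed in few tissues, by tissue, with blue points before and red points after transplantation and a bar at the mean of the 2 samples. Krt19 fell in bladder, trachea and vagina, and Anxa9 rose to 80.7 to 89.5 CPM in bladder and thymus but fell in vagina and whisker.

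The last 3 members differ in kind. Serpinb9, an inhibitor of granzyme B, fell in bladder from 86.1 and 101 CPM to 28.9 and 32.4 CPM (log2 fold change -1.60 ± 0.11, adjusted p = 3.6e-09). In vagina it fell from 111 and 107 CPM to 45.6 and 40.3 CPM (log2 fold change -1.35 ± 0.10, adjusted p = 3.6e-08). Tracheal cells (164 and 153 CPM before, 153 and 172 CPM after) overlapped between rounds (log2 fold change 0.04 ± 0.10, adjusted p = 0.78), and the change in thymus was -0.17 ± 0.10 (adjusted p = 0.19). Ly6g6c, a membrane-anchored protein of the Ly6 family, rose in bladder from 1.23 and 1.34 CPM to 11.7 and 9.64 CPM (log2 fold change 3.03 ± 0.28, adjusted p = 1.6e-07). It rose in thymus from 1.31 and 0.746 CPM to 2.29 and 1.91 CPM (log2 fold change 1.05 ± 0.36, adjusted p = 0.023), a call that ended at 0.66 without the second earlier sample, at 0.91 without the first recovered one and in a fit of the thymic groups alone (1.06). In whisker cells it fell from 21.8 and 22.2 CPM to 9.67 and 7.29 CPM (log2 fold change -1.40 ± 0.15, adjusted p = 4.9e-06). Dscc1 ranged from 1.88 to 11.5 CPM, was the only member called in none of the 4 non-hair tissues, and was the only one higher in recovered whisker cells (log2 fold change 1.06 ± 0.32, adjusted p = 0.023), a call that ended without any 1 of the 4 whisker samples (0.97 to 1.14).

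In whisker cells the 6 genes that fell were Anxa9, Calml3, Dmkn, Dsc1, Ly6g6c and Sbsn, and each of these rose in bladder, where 18 of the 26 genes rose. The share of all genes that fell in whisker and rose in bladder is not given, so nothing is read from this overlap. The difference between the whisker change and that of other tissues was not tested, and the 2 whisker groups are a clone and a subclone. Falls ranged from -1.15 for Dmkn to -1.88 for Calml3 on the log2 scale.

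The second comparison set each non-hair tissue against the mean of the other 3 within a round. It asked how far tissues differed in these genes before transplantation and how far they still differed after it. Before transplantation 51 of 104 pairs of gene and tissue were called, and after it 50 of 104, where all genes gave 17.1% and 14.1% of pairs. No share of symbol-paired genes is set beside these counts. Because the genes entered through lists made from these samples, a share above that of all genes is not independent of how they were chosen. The 4 contrasts of a round share samples, so the pairs are not independent of each other. Vaginal cells had 14 members higher and 3 lower before transplantation (all genes 7.59% higher and 9.52% lower) and 9 higher and 4 lower after it (5.01% and 9.18%), 9 of them called in the same direction in both rounds. Bladder cells had 4 higher and 11 lower before (all genes 12.9% and 7.46%) and 11 higher and 3 lower after (10.8% and 3.79%), with 5 genes in the same and 4 in opposite directions. Tracheal cells had 3 higher and 4 lower before (all genes 6.15% and 6.16%) and 2 higher and 11 lower after (5.44% and 7.84%), with 4 in the same direction. Thymic cells had 4 higher and 8 lower before (all genes 8.4% and 10.1%) and 3 higher and 7 lower after (8.5% and 5.99%), with 4 in the same direction and 2 in opposite ones. The share of all genes called in the same or in opposite directions in both rounds is not given. The numbers of shared and opposite directions are therefore a description, and nothing particular to these genes is read from them.

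Vaginal cells had more members above the other tissues before transplantation than any other tissue had. Before transplantation Dsg1 was 6.27 ± 0.41 (SE) higher on the log2 scale than the mean of bladder, trachea and thymus (adjusted p = 2e-09), and after it 4.07 ± 0.16 higher (adjusted p = 9.5e-12). Krt10 was 5.44 ± 0.20 higher before (adjusted p = 2.5e-12) and 4.47 ± 0.14 higher after (adjusted p = 1.4e-12). Dsg1 and Krt10 thus stayed above the other tissues in recovered vaginal cells. Krt19 in vagina was lower, at -2.38 ± 0.12 before (adjusted p = 1.2e-10) and at -6.42 ± 0.42 after (adjusted p = 3.4e-09). Anxa9 was 1.10 ± 0.17 before, a call that ended without the second vaginal or the second thymic sample, and -3.41 ± 0.20 after (adjusted p = 9e-10), the 1 gene that changed sides in vagina.

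Bladder cells changed sides in 4 genes. Krt10 was -1.42 ± 0.33 against the other tissues before transplantation (adjusted p = 0.0013) and 3.77 ± 0.14 after it (adjusted p = 4.2e-12). Dmkn went from -3.86 ± 0.56 to 2.81 ± 0.12 (adjusted p = 1.8e-05 and 9.3e-12). Sbsn and Dsc1 did the same, from -1.90 ± 0.42 to 2.59 ± 0.14 and from -1.84 ± 0.59 to 1.73 ± 0.23, where the earlier call of Dsc1 rests on 3 reads and ended without either bladder sample. These genes were low in bladder cells before transplantation and high after it relative to the other tissues of the same round. Krt19 remained higher in bladder, by 4.14 ± 0.11 before (adjusted p = 2.3e-14) and 5.59 ± 0.17 after (adjusted p = 2.6e-13). Krtap3-2 was also higher in both rounds (2.03 ± 0.33 and 4.60 ± 0.37), and Cnfn was higher in the recovered round (3.26 ± 0.24, adjusted p = 8.3e-09).

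Recovered tracheal cells had 11 members below the mean of the other tissues, the highest such count in that round. Krt10 was -6.50 ± 0.34 against the other 3 after transplantation (adjusted p = 3.1e-10) and -2.17 ± 0.36 before it (adjusted p = 0.00013). Sbsn was -3.70 ± 0.26 after (adjusted p = 7.9e-09) and Dmkn -3.62 ± 0.22 (adjusted p = 1.8e-09), so the rises of Sbsn and Dmkn within trachea left them below the other tissues. Anxa6 was higher in trachea in both rounds, by 1.43 ± 0.07 and 1.96 ± 0.07 (adjusted p = 1.7e-10 and 8.1e-12). Fibroblast marker sums in the recovered round were 39.7 to 47.0 CPM in trachea and 24.0 to 45.6 CPM in the other 3 tissues, and their part in the difference of Anxa6 was not tested. Serpinb9 was higher after transplantation (1.99 ± 0.08, adjusted p = 1.9e-11).

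Thymic cells changed sides in Calml3 and Anxa9. Calml3 went from -2.47 ± 0.18 to 2.35 ± 0.09 against the other tissues (adjusted p = 8.6e-09 and 2.1e-12). Anxa9 went from -1.99 ± 0.26 to 2.45 ± 0.12 (adjusted p = 6.9e-06 and 4.5e-11). Krt10, Calml5 and Cnfn were lower in thymus in both rounds, at -1.74, -1.61 and -1.14 on the log2 scale after transplantation, and the calls of Cnfn ended without the second earlier thymic sample before and in DESeq2 after. Dscc1 was higher in thymus in both rounds, by 1.46 ± 0.19 and 1.39 ± 0.22 (adjusted p = 6.3e-06 and 4.7e-05).

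The third comparison asked whether the change in tracheal cells differed from that in bladder, vaginal or thymic cells, tested as an interaction. Of 78 pairs 36 were called, against 15.8% of pairs over all genes, and the 3 contrasts share the tracheal samples. Here too no share of symbol-paired genes is set beside the count, which is not independent of how the genes were chosen. Against bladder the tracheal change was lower for 16 genes and higher for 3 (all genes 7.67% lower and 4.91% higher), against thymus lower for 6 and higher for 0 (10.2% and 7.34%), and against vagina lower for 4 and higher for 7 (8.15% and 9.09%). Krt10 differed from all 3, its change in trachea minus that in bladder being -7.14 ± 0.56 (SE) (adjusted p = 1.3e-07), -3.32 ± 0.58 for thymus (adjusted p = 0.00029) and -2.52 ± 0.49 for vagina (adjusted p = 0.00065). Cnfn differed from bladder (-4.96 ± 0.75, adjusted p = 0.00011) and thymus (-5.29 ± 1.33, adjusted p = 0.0048). The Cnfn value for bladder was -6.07 without the second and -3.71 without the first earlier bladder sample, and that for thymus -6.86 without the first and -3.76 without the second earlier thymic sample. Calml3 differed from thymus by -6.11 ± 0.21 (adjusted p = 1.3e-11) and from bladder by -3.78 ± 0.26 (adjusted p = 2.9e-08). Dsc3 was called in none of the 3 contrasts. Its rise in trachea minus that in bladder was -0.75 ± 0.13, and minus those in vagina and thymus 0.82 ± 0.13 and 0.34 ± 0.13, which are differences below 2-fold rather than evidence of an equal rise.

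Whisker cells served as the hair-forming reference in the study. Because the genes entered through lists of differences from whisker cells, calls against whisker cells follow from that choice, and the levels are given side by side as a description. Before transplantation 75 of 104 pairs of gene and non-hair tissue passed the call, with 25.4% over all genes, and after transplantation 59 of 104, with 16.9%; nothing is read from these counts. Krt10 had 1720 and 1350 CPM in whisker cells before transplantation, beside 52.6 to 62.8 CPM in vagina and at most 1.79 CPM in the other 3 tissues. After it the whisker samples had 821 and 917 CPM, vagina 321 to 337 CPM, bladder 223 to 235 CPM, thymus 12.0 to 14.4 CPM and trachea 0.948 to 1.27 CPM. Sbsn had 567 and 515 CPM in whisker cells before and 169 and 171 CPM after, and the recovered samples of bladder (87.2 to 104 CPM) and vagina (68.6 to 70.7 CPM) came next, ahead of thymus (14.8 to 16.7 CPM) and trachea (3.43 to 3.76 CPM). Dsg3 in recovered cells was highest in vagina (2200 to 2220 CPM), and bladder (1590 to 1650 CPM) and whisker (1420 to 1540 CPM) lay close together, followed by thymus (1050 to 1100 CPM) and trachea (915 to 954 CPM). Over all 20 samples the levels ran from 75.5 to 380 CPM for Anxa5 and from 0.731 to 22.2 CPM for Ly6g6c, and without the whisker samples from 28.9 to 172 CPM for Serpinb9.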

How the data were processed

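Read counts per gene were deposited by the authors for each of the 20 samples. Per the labels and the study's methods, libraries were stranded mRNA, reads were trimmed with cutadapt 1.8, aligned to Rnor_6.0 with STAR 2.5.2b and counted with HTSeq 0.6.1 against Ensembl genes; the strand setting of the counting is not given in the sources used here. Reads with several alignments (11601894 to 19374286 per sample) were not counted on genes, which lowers genes with near-identical copies. Rows naming no gene held 41.6 to 46.4% of each file and were left out.

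Scaling was by TMM (edgeR 4.0.16). The 13302 genes that reached 1 CPM in any sample were fitted with limma 3.58.1 (voom, R 4.3.3) in 1 model of 10 group means with 10 residual degrees of freedom. This test and filter follow the study's methods. Benjamini-Hochberg adjustment ran over all genes of a comparison. Genes were called at an adjusted p below 0.05 and a log2 fold change of at least 1. The fit was tested on simulated data. Alternatives were edgeR's quasi-likelihood test, DESeq2 1.42.0, its size factors, no or a stricter filter (10 counts in 2 samples), a replicate block, a fit of only the compared groups, a log2 fold change of 2, leaving out Dscc1 and Krtap3-2, and leaving out each sample.

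The 26 genes and all lists were chosen with earlier results of these data known. Every member is named. A member is described in full if it had the largest rise or fall in a tissue with at least 10 CPM in the higher group, was called in the same direction in at least 3 of 4 tissues, differed between trachea and at least 2 tissues, or was called in at least 2 tissues against the others in both rounds. The authors' lists of genes differing from whisker cells fixed the members, and no other comparison of theirs was used.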

Additional observations from a re-analysis of the deposited data

Results flagged for a closer look

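The change after transplantation in tracheal cells differed from that in bladder, vaginal or thymic cells in 36 pairs of gene and tissue by the interaction test. Values are the tracheal change minus the other change on the log2 scale, and an adjusted p from limma below 0.05 and a difference of at least 2-fold were required. A negative value means that the gene rose less, or fell more, in trachea. Against bladder the cadherins and plakins with a negative value were Dsc1 (-3.51), Dsg3 (-2.99), Dsg4 (-2.48) and Evpl (-1.65). Among keratin and keratin-associated genes these were Krt10 (-7.14), Krtap3-2 (-2.48) and Krt19 (-2.30). Of these Krt19 fell in both tissues and further in trachea (-3.36) than in bladder (-1.06). All 6 cornified envelope and late epidermal genes had a negative value. They were Dmkn (-5.66), Cnfn (-4.96), Klk7 (-4.74), Sbsn (-4.58), Calml3 (-3.78) and Calml5 (-3.58). Anxa9 (-2.68), Ly6g6c (-2.60) and Anxa1 (-1.06) also had a negative value. Serpinb9 (1.64), Anxa6 (1.45) and Anxa5 (1.25), which fell in bladder, had the opposite difference.

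Against thymus the value was negative for Calml3 (-6.11), Cnfn (-5.29), Anxa9 (-4.65), Krt19 (-4.35), Krt10 (-3.32) and Evpl (-1.08), where Krt19 had fallen in trachea and had a change of 0.99 in thymus. Against vagina it was negative for Dsg4 (-4.12), Klk7 (-3.62), Krt10 (-2.52) and Dscc1 (-1.19) and positive for Anxa9 (2.07), Dmkn (1.93), Dsg1 (1.88), Krt19 (1.82), Calml5 (1.40), Serpinb9 (1.39) and Dsc2 (1.06). Of the latter, Anxa9, Krt19, Serpinb9 and Dsc2 fell in vagina, by more than in trachea in the case of Krt19 (-5.18 in vagina), while Anxa9 (0.54), Serpinb9 (0.04) and Dsc2 (0.04) were not called in trachea. Dsg4, Klk7 and, against bladder, Dsc1 rest on levels under 1 CPM in trachea. Some of these calls ended when 1 sample was left out, namely Anxa1, Dsg4, Klk7 and Krtap3-2 against bladder and Dmkn, Dscc1, Dsg1 and Klk7 against vagina. That of Dscc1 against vagina also ended without the low-count filter, and that of Dsg4 against bladder in DESeq2. Leaving out single earlier samples moved other values. Calml5 against bladder was -4.35 without the second and -2.76 without the first earlier bladder sample, and Krtap3-2 -1.86 and -3.19. Dsg4 against vagina was -4.98 without the second and -3.17 without the first earlier vaginal sample. Klk7 without the second and without the first earlier tracheal sample was -5.72 and -3.72 against bladder and -4.59 and -2.59 against vagina.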

How the results depend on the processing

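Of 416 pairs of gene and comparison, 202 were called, of which edgeR lost 1, DESeq2 7, DESeq2 size factors 0, no low-count filter 2 and the stricter filter 1. A fit of only the compared groups kept 194 and lost 3, and could not test the rest. Leaving out single samples ended 39 of the 202 calls in at least 1 case. Counts of called members then ran from 19 to 23 (bladder), 5 to 7 (trachea), 11 to 15 (vagina), 12 to 16 (thymus) and 6 to 6 (whisker). Pairs called ran from 46 to 52 (tissue against tissue, before), 47 to 50 (after), 31 to 37 (tracheal change), 73 to 76 (whisker before) and 58 to 61 (whisker after). Requiring a log2 fold change of 2 left 14 genes in bladder, 5 in vagina, 7 in thymus and 0 in whisker, and 24 pairs between tissues before, 24 after, 23 for the tracheal change and 37 against whisker cells after transplantation, by its construction. In the uncalled comparison of bladder with the other tissues before transplantation, Cnfn ran from -0.58 without the second bladder sample to 1.77 without the first, and was at -0.00 without the second thymic one, and Dscc1 ran from 0.25 without the first bladder sample to -1.15 without the second; the cause was not tested. The replicate numbers share only a number: deviations of same-numbered samples correlated between -0.239 and 0.386 over 45 pairs of groups. A replicate block kept all 202 calls and left the counts at 22 (bladder), 7 (trachea), 15 (vagina) and 14 (thymus). Depth limits Dsc1, Dsg1, Klk7, Dsg4 and Krtap3-2, which had few reads in some groups. It also limits the rises of Dmkn and Calml5 in bladder (12 and 8 reads in all before transplantation). The same holds for Calml5 and Cnfn in thymus (13 and 14 reads before).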
